A study of Mus musculus with 9 samples.

Results

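The miRNAs typical of red blood cells miR-451a (MIMAT0001632), miR-144-3p (MIMAT0000156) and miR-486a-5p (MIMAT0003130), were followed in small RNA libraries of mouse serum. They were selected by their miRBase identifiers, and 2 of the 3 had a count, among 876 miRNAs with a count in any library. The entry miR-486a-5p is not analysed here. Its copy miR-486b-5p (MIMAT0014943) has the same mature sequence and stands for miR-486-5p throughout. Serum came from healthy 129/SVj mice of both sexes, aged 2 to 9 months, which had been sedated with tribromoethanol and bled by heart puncture. Serum of 3 mice was pooled, and the labels name the pools A, B and C. RNA of each pool was left as it was (control), depleted of 5′ tRNA-half fragments with biotinylated DNA probes and streptavidin beads, or depleted with DNA probes and RNase H followed by DNase I. This gave 9 libraries in 3 groups of 3. The labels name no allele or treatment of the animals that differs between the groups. The study's methods describe the replicates as aliquots of a serum pool, in which case the p-values measure technical spread alone.

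miRNAs are short RNAs that pair with messenger RNAs, mainly through their seed near the 5′ end, and lower the output of the messenger. The cluster of Mir144 and Mir451a is switched on by the erythroid factor GATA1, and miR-451a becomes one of the most abundant miRNAs of the red cell. Its precursor is cut by Argonaute 2 and not by Dicer, and miR-486-5p, made from an intron of the erythrocyte ankyrin gene, is also enriched in red cells. Mature red cells keep these miRNAs, and lysis during blood collection releases them into serum, so their level is used to judge hemolysis.

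The sequences of the cluster are shown because both miRNAs come from neighbouring hairpins and yet differ in how they are cut. They were taken from RefSeq on GRCm38.p6, 5′ to 3′, and both genes lie on the plus strand of chromosome 11. In the mature sequences the capitals mark the seed (bases 2 to 8).
miR-451a, chr11:78073186-78073207: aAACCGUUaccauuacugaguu
miR-144-3p, chr11:78073047-78073066: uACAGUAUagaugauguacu
miR-144-5p, chr11:78073010-78073032: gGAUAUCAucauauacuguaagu
In the hairpins the capitals mark the mature parts.
Mir144, chr11:78073005-78073070: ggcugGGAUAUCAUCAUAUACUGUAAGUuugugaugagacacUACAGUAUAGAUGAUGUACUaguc
Mir451a, chr11:78073170-78073241: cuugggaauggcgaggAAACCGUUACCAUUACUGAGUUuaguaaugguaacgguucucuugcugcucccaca

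The 3 seeds differ from each other. The hairpins are 99 bases apart, and no annotated gene overlaps Mir144. Mir451b is annotated on the opposite strand over the 72 bases of Mir451a. In the predicted fold of the 72-base Mir451a hairpin, the terminal loop takes up bases 35 to 38 and the mature miR-451a bases 17 to 38, so 4 bases of the miRNA lie in the loop. In the 66-base Mir144 hairpin, the loop covers bases 31 to 36, and neither the 5p arm (bases 6 to 28) nor the 3p arm (bases 43 to 62) reaches it. Mir486 (chr8:23142555-23142682, plus strand) and Mir3107, which yields the miR-486b entries (chr8:23142573-23142662, minus strand), share 90 bases and lie in an intron of Ank1, the erythrocyte ankyrin gene, and of the antisense gene Gm15816. The sources used here do not state that counting used the strand. All miR-486 counts stand under the miR-486b entries, and none under miR-486a. Whether some of these reads came from Mir486 was not tested, and all miR-486 values are uncertain in this respect.

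The depth of the miRNA counts differed widely between the groups. Control libraries held 205185, 330676 and 248696 miRNA counts in pools A, B and C, beads-depleted libraries 1926545, 1995956 and 1822088, and RNase H-depleted libraries 2040, 1977 and 1199. A level is given as percent of the miRNA counts of its library. In the RNase H-depleted libraries 3 counts, taken as the smallest level that can be read, correspond to at least 0.147% of miRNA counts, which is above the mean share of miR-144-3p in control serum. Intervals of single libraries are Wilson 95% intervals and cover counting error only.

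miR-451a, the leading erythroid miRNA, made up 6.97%, 6.96% and 6.99% of miRNA counts in control pools A, B and C (14292, 23011 and 17389 counts). After depletion with beads its share was 9.04%, 8.84% and 9.78% (174101, 176407 and 178175 counts). After depletion with RNase H it was 4.85% (interval 4.00 to 5.87), 7.44% (6.36 to 8.68) and 7.17% (5.84 to 8.77), from 99, 147 and 86 counts. Thus every beads-depleted library lay above every control library, whereas the RNase H-depleted libraries fell on both sides of the controls. The control libraries were nearly identical, at 6.97% ± 0.0176 (SD, n = 3), against 9.22% ± 0.496 (SD, n = 3) with beads and 6.49% ± 1.42 (SD, n = 3) with RNase H. In each control and each beads-depleted library miR-451a ranked 4th among all miRNAs.

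**Figure D1:**
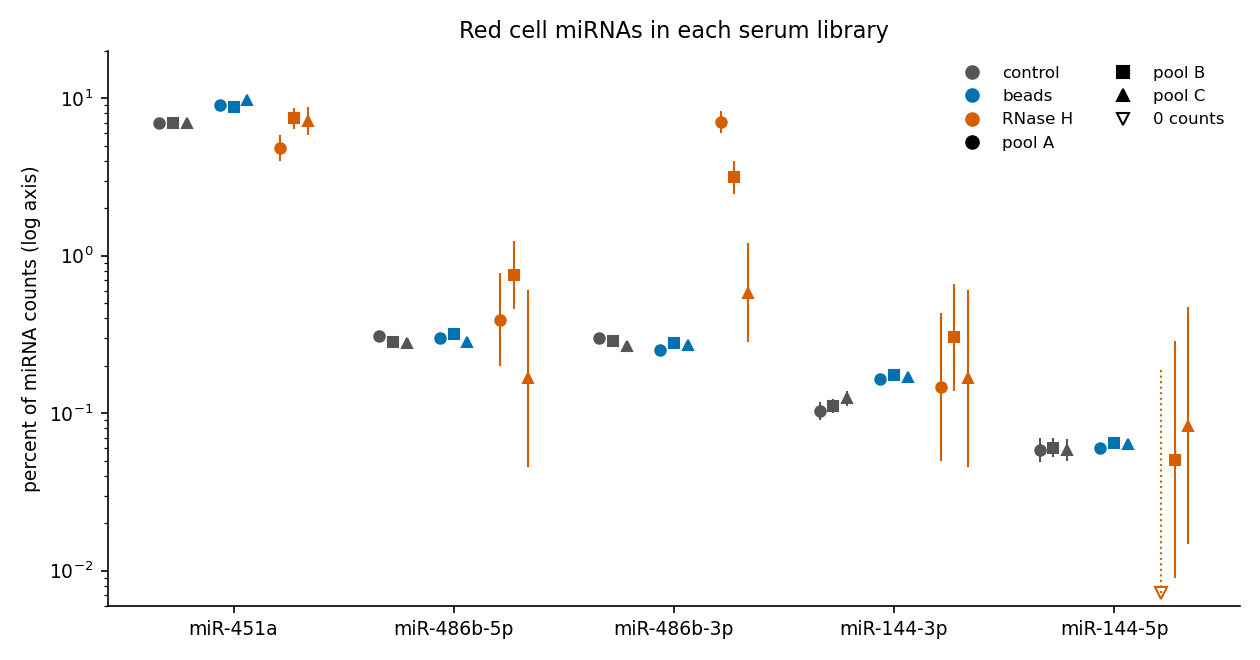
Share of each red cell miRNA in percent of miRNA counts (log axis) in 9 serum libraries, with colours for the group, symbols for the serum pool, and bars for Wilson 95% intervals. Beads-depleted libraries lie above the controls for miR-451a (8.84 to 9.78% against 6.96 to 6.99%) and miR-144-3p, the miR-486b-5p shares of both groups overlap, and the open triangle marks a library with 0 counts.

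miR-144-3p, the guide strand of the first hairpin of the cluster, was far rarer than miR-451a. Its share was 0.103%, 0.111% and 0.124% in control pools A, B and C (212, 366 and 309 counts) and 0.165%, 0.175% and 0.171% with beads (3170, 3486 and 3111 counts). With RNase H, 3, 6 and 2 counts were left, corresponding to 0.147% (interval 0.05003 to 0.431), 0.303% (0.139 to 0.661) and 0.167% (0.0458 to 0.606). The beads-depleted libraries again all exceeded the controls, while the RNase H-depleted libraries also lay above the controls, with intervals that reach down to the control shares in pools A and C but not in pool B. Group means were 0.113% ± 0.0106 (SD, n = 3) for control, 0.170% ± 0.00510 (SD, n = 3) for beads and 0.206% ± 0.0852 (SD, n = 3) for RNase H.

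miR-486-5p, read here as miR-486b-5p, showed no such separation. It made up 0.309%, 0.285% and 0.280% of miRNA counts in control pools A, B and C (633, 942 and 696 counts) and 0.300%, 0.316% and 0.281% with beads (5782, 6309 and 5122 counts). RNase H-depleted libraries held 8, 15 and 2 counts, or 0.392% (interval 0.199 to 0.772), 0.759% (0.460 to 1.25) and 0.167% (0.0458 to 0.606). Control and beads libraries overlapped, and the RNase H libraries lay above and below both. The means were 0.291% ± 0.0153, 0.299% ± 0.0175 and 0.439% ± 0.299 (SD, n = 3) for control, beads and RNase H.

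In control serum the miRNAs of the cluster and miR-486 therefore stood in a wide order of abundance. miR-451a was separated from its neighbours by more than their spread, since MIMAT0000531 above it ranged from 10.5% to 11.1% and miR-25-3p below it from 5.03% to 5.66%. miR-486b-5p held place 38, and its range (0.280 to 0.309%) overlapped those of the miRNA above (MIMAT0003151, 0.295 to 0.315%) and of its own 3p arm below (0.267 to 0.299%). miR-144-3p held place 62. Its range of 0.103 to 0.124% overlapped that of MIMAT0005859 above (0.120 to 0.130%) but not that of MIMAT0004187 below (0.0971 to 0.102%).

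Whether depletion changed these relative levels was tested in edgeR fits over all miRNAs. Of 307 miRNAs tested between beads-depleted and control libraries, 16.6% were called raised and 10.1% lowered (26.7% in either direction) at an adjusted p of 0.05, with a median log2 fold change of 0.04. The fit settled on one spread for all miRNAs. Both miRNAs of the cluster were among those called raised. miR-451a rose 1.33-fold (95% interval 1.24 to 1.43, log2 fold change 0.41 ± 0.05 SE, adjusted p = 4.59e-13 by edgeR), and miR-144-3p rose 1.51-fold (1.33 to 1.72, 0.60 ± 0.09 SE, adjusted p = 2.68e-09 by edgeR). Both calls were kept in 13 of 13 other ways of running the comparison that scaled to miRNA counts, with log2 fold changes of 0.37 to 0.45 for miR-451a (adjusted p up to 0.00413) and 0.55 to 0.66 for miR-144-3p (adjusted p up to 9.00e-05). In all 3 comparisons the 13 include a sum of the miR-486-5p entries, which repeats the main fit because miR-486a-5p had no counts. A fit with outlier-robust spread, also among the 13, gave identical values here, so it and the sum are no separate checks. miR-486b-5p had a log2 fold change of 0.05 (SE 0.08, adjusted p = 0.735 in edgeR), with an interval of 0.93- to 1.15-fold. The shares themselves can only reach p = 0.1 with 3 against 3 libraries, and this smallest value was obtained for miR-451a and miR-144-3p (two-sided exact permutation test), higher in 3 of 3 pools each. For miR-486-5p the permutation p was 0.6, with 2 of 3 pools higher. Adjusted over the 23 comparisons tested in this way, no p was below 0.177.

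These are changes within the miRNA fraction. Before scaling, beads depletion yielded on average 10.03 times as many miR-451a counts as the control of the same pool (7.67 to 12.2), 11.5 times as many miR-144-3p counts (9.52 to 15.0) and 7.73 times as many miR-486b-5p counts (6.70 to 9.13). With all annotated counts as library size, the median over miRNAs moved up by 3.33 on the log2 scale and 332 of 332 miRNAs tested were called. Relative to the median of that fit, the difference was 0.35 for miR-451a, 0.54 for miR-144-3p and 0.01 for miR-486b-5p.

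Between RNase H and control, edgeR called no member. Of 138 miRNAs tested, 6.52% were called raised and 5.07% lowered (11.6% in either direction), with a median log2 fold change of -0.19, or -0.13 over the 80 miRNAs with more than 3 counts in each group. The log2 fold change of miR-451a was -0.22 ± 0.19 SE (95% interval 0.65- to 1.13-fold, adjusted p = 0.483 by edgeR). Its sign turned when any single control library was left out (0.09 to 0.10). Only 33 or 34 miRNAs then passed the filter, against 138, so these fits differ from the main fit in more than the library left out. For miR-144-3p it was 0.79 ± 0.47 SE (0.87- to 3.43-fold, adjusted p = 0.312 by edgeR), although its share was higher in 3 of 3 pools without overlap (two-sided exact permutation p = 0.1, the smallest possible, from 11 counts in all). For miR-486b-5p it was 0.60 ± 0.33 SE (0.94- to 2.44-fold, adjusted p = 0.285 by edgeR). DESeq2 called miR-486b-5p higher (0.82, adjusted p = 0.0483), against edgeR adjusted p-values of 0.190 to 0.938 in other settings that scaled to miRNA counts. The DESeq2 log2 fold changes of miR-451a (-0.03) and miR-144-3p (1.00) were above those of edgeR too. In counts simulated at this depth with one spread for all miRNAs, the fit found 45.9% of miRNAs changed 3-fold, so smaller changes may be missed.

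Between both depletion protocols, miR-451a was lower with RNase H. Of 263 miRNAs tested, 1.52% were called raised and 2.28% lowered (3.8% in either direction, 10 miRNAs, and 6 with the serum pool as a block). The log2 fold change of miR-451a was -0.68 ± 0.17 SE (0.49- to 0.79-fold, adjusted p = 0.00552 by edgeR), and its share was lower in 3 of 3 pools without overlap (two-sided exact permutation p = 0.1). The median over all tested miRNAs was -0.85, but 183 of the 263 had no more than 3 counts summed over a group, and over the remaining 80 the median was -0.34. The call held in 7 of 13 other settings that scaled to miRNA counts and was lost with DESeq2 (-0.30, adjusted p = 0.220), without TMM (-0.52, adjusted p = 0.109), without the beads library of pool A (-0.36, adjusted p = 0.298), B (-0.30, 0.240) or C (-0.27, 0.441), and without the RNase H library of pool C (-0.75, 0.0655). The 7 include the repeat of the main fit described above. Leaving out a beads library cut the miRNAs tested from 263 to 33, and the median was then -0.16 (A), 0.02 (B) or -0.07 (C). With the serum pool as a block the call held (adjusted p = 0.0354). miR-144-3p (0.16 ± 0.46 SE, adjusted p = 0.812 by edgeR) and miR-486b-5p (0.52 ± 0.32 SE, adjusted p = 0.586 by edgeR) were not called. DESeq2 called miR-486b-5p higher here as well (0.91, adjusted p = 0.0396). The DESeq2 log2 fold changes of miR-451a (-0.30), miR-144-3p (0.54) and miR-486b-3p (4.05) were also above those of edgeR, so the upward offset is not particular to miR-486b-5p.

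**Figure D2:**
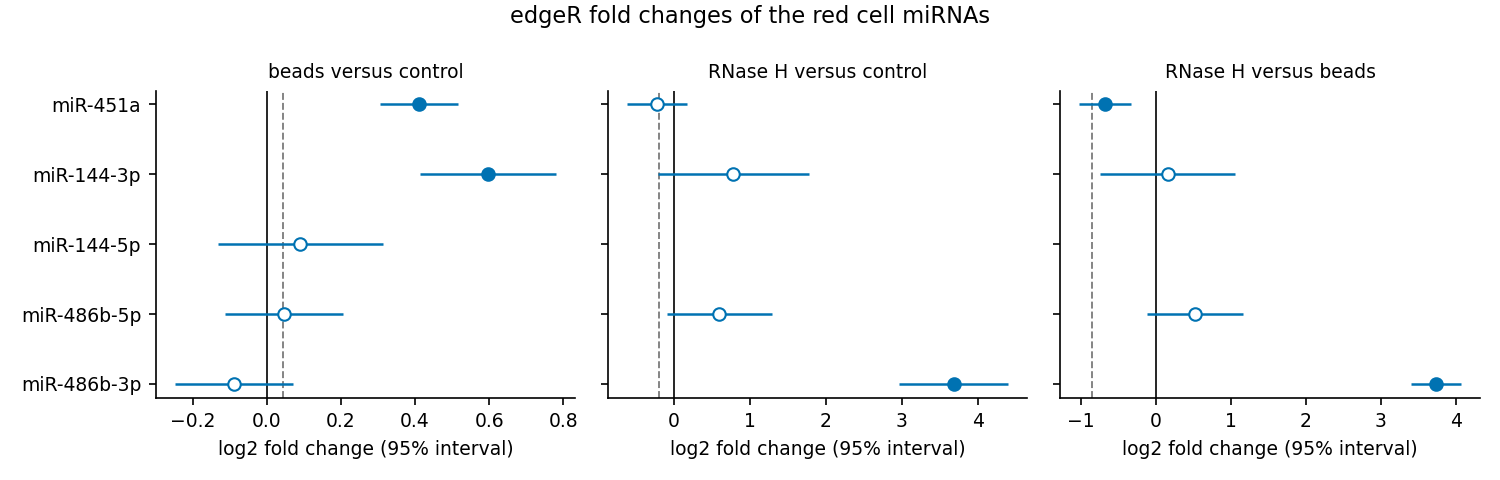
Log2 fold changes from edgeR with 95% intervals for the red cell miRNAs and the other arms of their hairpins in 3 comparisons of 3 against 3 libraries (filled, adjusted p below 0.05). The dashed line is the median over all miRNAs tested. miR-451a (0.41) and miR-144-3p (0.60) lie above 0 for beads versus control, miR-486b-3p lies far to the right in both RNase H panels, and miR-144-5p is not drawn there because it had 2 counts in all.

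The other arms of the hairpins were read from the same fits. miR-144-5p, the passenger strand opposite miR-144-3p, had 120, 200 and 146 counts in control libraries and 1160, 1286 and 1166 with beads. Its share of 0.0592% ± 0.00110 in control and 0.0629% ± 0.00232 with beads (SD, n = 3) gave a log2 fold change of 0.09 ± 0.11 SE (adjusted p = 0.640 by edgeR), so that the arm ratio of 3p to 5p counts was 1.77, 1.83 and 2.12 in control pools A, B and C and 2.73, 2.71 and 2.67 with beads. The ratios did not overlap between the groups and were higher in 3 of 3 pools (two-sided exact permutation p = 0.1, the smallest possible). With RNase H, miR-144-5p had 0, 1 and 1 counts, and a change was not detectable at this depth.

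miR-486b-3p, the other arm of the miR-486b hairpin, was as abundant as miR-486b-5p in control serum. It had 614, 955 and 664 counts in control libraries (0.285% ± 0.0165, SD, n = 3) and 4838, 5589 and 4907 with beads (0.267% ± 0.0146, SD, n = 3), with a log2 fold change of -0.09 ± 0.08 SE (adjusted p = 0.484 by edgeR). After RNase H it had 144, 62 and 7 counts in pools A, B and C, or 7.06% (interval 6.03 to 8.25), 3.14% (2.45 to 4.00) and 0.584% (0.283 to 1.2002). All 3 RNase H-depleted libraries were above all others, but they differed among themselves far beyond counting error, and the library of pool A alone held most of the counts. The counts are given by identifier, so the read sequences behind this entry could not be inspected, and whether all of them are miR-486b-3p was not tested. Against control the log2 fold change was 3.69 ± 0.34 SE (adjusted p = 2.14e-07 by edgeR), called in 13 of 13 other settings that scaled to miRNA counts (2.83 to 4.16, adjusted p up to 0.0384). Against beads it was 3.73 ± 0.17 SE (adjusted p = 3.63e-86 by edgeR), in a fit that used one spread for all miRNAs and so gave no weight to the differences between these 3 libraries. With a spread that was allowed to differ for outlying miRNAs the adjusted p became 0.110, and DESeq2 gave 0.00033. Without the beads library of pool A or B it was 0.0706 and 0.0850, with 33 miRNAs tested against 263 in the main fit. The exact permutation p of the 5p to 3p ratio was 0.1, the smallest possible. That ratio was 1.03, 0.986 and 1.05 in control pools A, B and C, 1.195, 1.13 and 1.04 with beads, and 0.0556, 0.242 and 0.286 with RNase H.

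Summed over miR-451a, miR-144-3p and miR-486-5p, the erythroid share of serum miRNA was 7.38%, 7.35% and 7.40% in control pools A, B and C. It was 9.50%, 9.33% and 10.2% with beads and 5.39%, 8.50% and 7.51% with RNase H. The beads-depleted libraries exceeded the controls by 2.31 percentage points on average without overlap, 9.69% ± 0.478 against 7.38% ± 0.0210 (SD, n = 3, two-sided exact permutation p = 0.1). With RNase H the mean was 7.13% ± 1.59 (SD, n = 3), with 1 library below and 2 above all controls, and its difference of -0.24 points to control had an exact permutation p of 1.0. This sum is carried by miR-451a: without miR-486-5p the means were 7.08%, 9.39% and 6.69% for control, beads and RNase H. For the level of such a share in serum, more red cells lysed and more miRNA released per cell cannot be told apart. The 3 groups were made from RNA of the same pools, so the differences between them are not a measure of either.

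Ratios of counts within a library need no scaling and were used to ask whether the cluster moved as a unit. The ratio of miR-451a to miR-144-3p was 67.4, 62.9 and 56.3 in control pools A, B and C and 54.9, 50.6 and 57.3 with beads. These groups overlapped (62.2 ± 5.60 and 54.3 ± 3.38, SD, n = 3, two-sided exact permutation p = 0.2), and 1 of 3 pools was higher with beads. With RNase H the ratio was 33.0, 24.5 and 43.0, below all other libraries (exact permutation p = 0.1 against either group). The denominators are 3, 6 and 2 counts, and the counting intervals of single libraries run from 11.1 to 159.

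The ratio of miR-451a to miR-486b-5p was 22.6, 24.4 and 25.0 in control pools A, B and C and 30.1, 28.0 and 34.8 with beads, without overlap and higher in 3 of 3 pools (exact permutation p = 0.1). With RNase H it was 12.4, 9.80 and 43.0, a range that includes both other groups.

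The ratio of miR-451a to miR-23a-3p, a miRNA little affected by red cell lysis, is a common index of hemolysis. miR-23a-3p (chr8:84208563-84208583, plus strand, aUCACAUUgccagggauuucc, seed in capitals) made up 0.126% ± 0.00881 of miRNA counts in control and 0.112% ± 0.00280 with beads (SD, n = 3). The index was 59.1, 55.4 and 51.6 in control pools A, B and C and 82.2, 77.0 and 89.0 with beads. It was thus 1.49 times as high with beads (ratio of geometric means) in RNA of the same pools, without overlap and in 3 of 3 pools (two-sided exact permutation p = 0.1). With RNase H, 1, 2 and 0 counts of miR-23a-3p gave 99.0, 73.5 and at least 28.7, and the counting intervals of the first pair reach up to 565 and 270.1. The hemoglobin absorbance that was recorded for the sera is not used here.

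**Figure D3:**
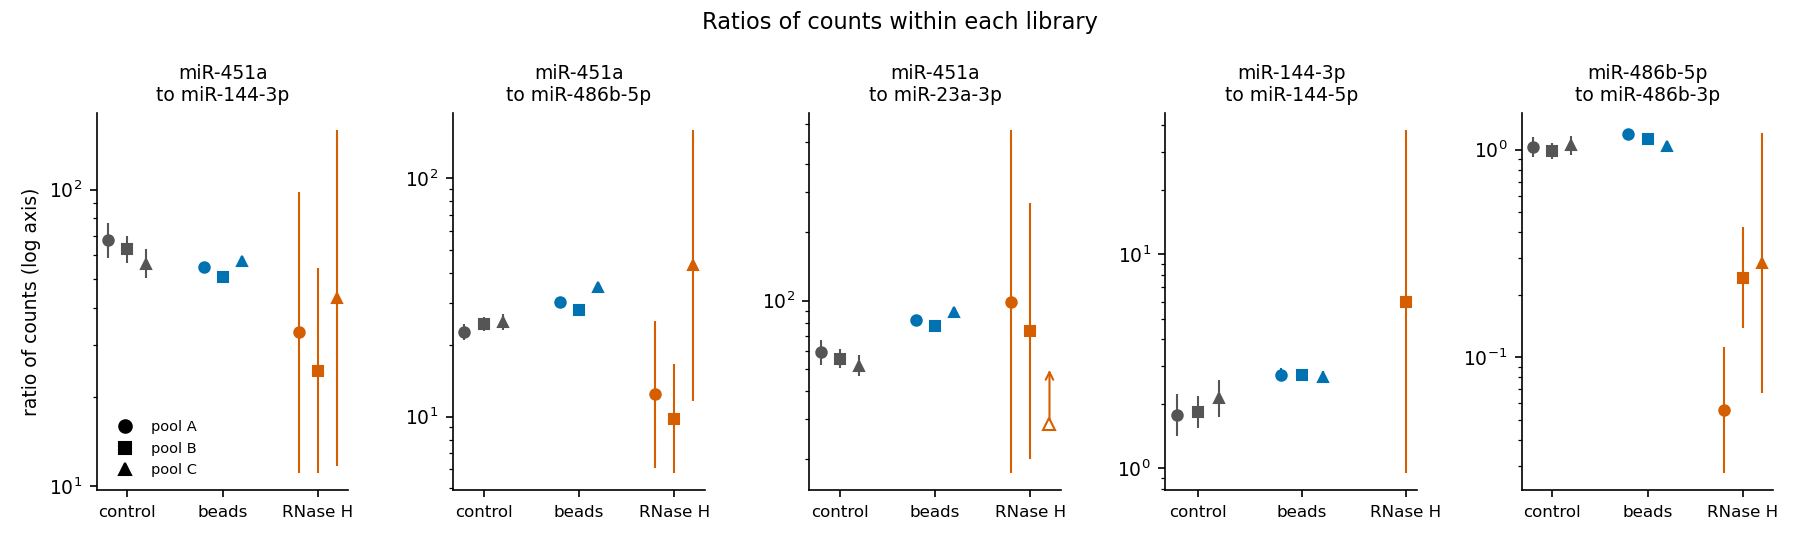
Ratios of counts within each of 9 libraries (log axes) for 5 pairs of miRNAs, with symbols for the serum pool and bars for 95% counting intervals. The miR-451a to miR-144-3p ratios of control and beads libraries overlap, the miR-451a to miR-23a-3p ratios are 51.6 to 59.1 and 77.0 to 89.0, the arrow marks a lower bound, and ratios of 3 or fewer counts to 3 or fewer are not drawn.

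Other miRNAs known to be abundant in red blood cells moved in both directions after depletion with beads. Of 10 listed, all with counts, 9 could be tested between beads and control libraries, where 2 rose, 2 fell and 5 were not called (26.7% of all miRNAs tested were called), with a median log2 fold change of 0.10 against 0.04 over all miRNAs. miR-20a-5p (0.94 ± 0.16 SE, adjusted p = 6.77e-08 by edgeR) and miR-106b-5p (0.85 ± 0.10 SE, adjusted p = 4.33e-17 by edgeR), members of the related miR-17 and miR-106b clusters, rose. miR-16-5p (-0.34 ± 0.05 SE, adjusted p = 5.51e-10 by edgeR) and miR-15a-5p (-0.42 ± 0.08 SE, adjusted p = 2.44e-07 by edgeR), which share a seed, fell. Not all relatives on the list moved, since miR-17-5p (-0.02, adjusted p = 0.933 by edgeR) and miR-15b-5p (0.10, adjusted p = 0.640 by edgeR) were not called. The summed share of the list was 30.4 to 30.9% in control, 27.4 to 28.9% with beads and 18.5 to 25.8% with RNase H. It is carried by miR-16-5p (means of 13.6% in control and 10.7% with beads), miR-92a-3p (10.9% and 11.7%) and miR-25-3p (5.36% and 5.21%). In the comparison of RNase H with control, 8 of the list could be tested, and 1 was called (11.6% over all miRNAs), miR-25-3p, which fell (-0.55 ± 0.17 SE, adjusted p = 0.0383 by edgeR), with a median of -0.40 over the 5 with more than 3 counts in each group against -0.13 over all such miRNAs. Compared with beads, 9 could be tested and 2 fell (3.8% of all miRNAs were called), miR-92a-3p (-0.54 ± 0.17 SE, adjusted p = 0.0433 by edgeR) and miR-25-3p (-0.56 ± 0.18 SE, adjusted p = 0.0483 by edgeR). Both calls were close to the threshold. The median was -0.54 over the 5 with more than 3 counts in each group, against -0.34 over all such miRNAs, so part of these decreases is shared by other miRNAs. Several of these miRNAs are also made by most other tissues.

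**Figure D4:**
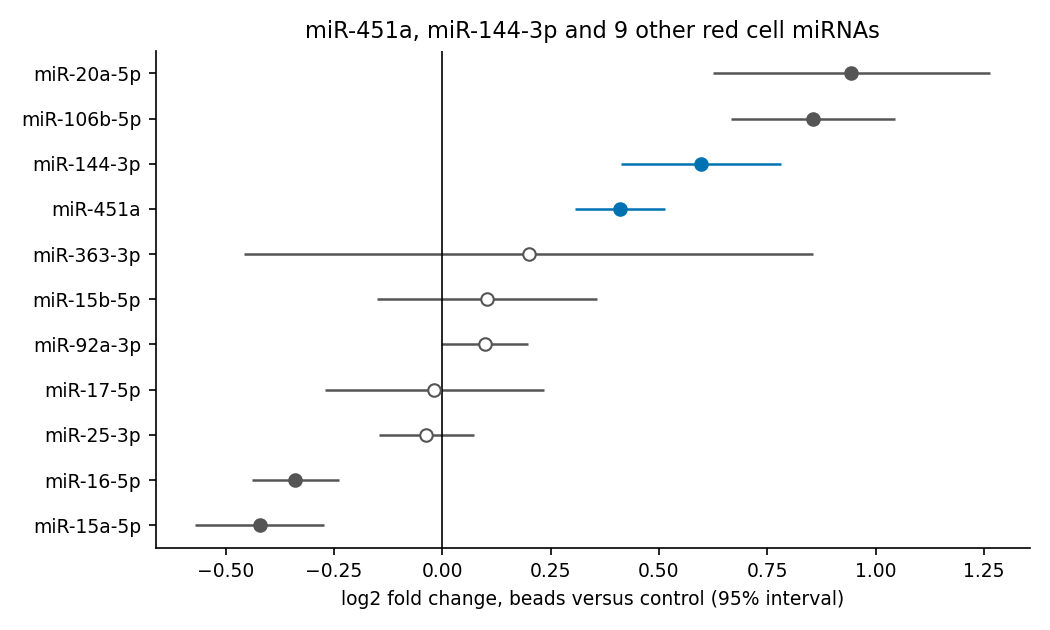
Log2 fold changes from edgeR with 95% intervals between 3 beads-depleted and 3 control libraries for miR-451a and miR-144-3p (blue) and 9 other red cell miRNAs (grey), filled where the adjusted p is below 0.05. miR-451a and miR-144-3p lie at 0.41 and 0.60, with miR-20a-5p and miR-106b-5p above them and miR-16-5p and miR-15a-5p below 0. miR-486b-5p (0.05, not called) is not drawn.

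miRNAs of other blood and vessel cells served as a comparison. Of 5 listed, 3 had counts: miR-223-3p of myeloid cells and platelets, miR-142a-5p of all blood lineages and miR-150-5p of lymphocytes. None was called in any of the 3 edgeR comparisons or by DESeq2. At an unadjusted p below 0.05 in edgeR, 2 passed between beads and control (miR-150-5p and miR-223-3p), 0 between RNase H and control, and 1 between RNase H and beads (miR-150-5p), against 113 of 307, 33 of 138 and 33 of 263 over all miRNAs tested. Their summed share was 4.25 to 4.72% in control, 4.04 to 4.85% with beads and 3.63 to 4.00% with RNase H, and beads and control libraries overlapped. The other 2, miR-142a-3p and miR-126a-3p, are not analysed here. Total miRNA counts were higher with beads in the same libraries as the share of miR-451a and miR-144-3p, and their part in that difference was not tested.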

How the data were processed

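Small RNA of 9 serum libraries was sequenced (TruSeq small RNA v2). Adapters were trimmed with Cutadapt 1.8.1 and reads were mapped to GRCm38 (mm10) without mismatches with Bowtie 1.1.2, per the submitters' processing notes and the study's methods, with miRNAs from miRBase v20. The deposited values are raw counts by the authors, not normalized, in 18 files of which 9 hold miRNAs. Exact matching loses reads with added or edited ends. Whether counting used the strand is not given in the sources used here. Files carry identifiers only, so names of the 23 miRNAs named here are those of miRBase, and the others are given by identifier.

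The count test was edgeR 4.0.16 under R 4.3.3 (filterByExpr, TMM, quasi-likelihood F-test, Benjamini-Hochberg over all miRNAs tested, threshold 0.05), fitting the 2 groups compared. In beads versus control and RNase H versus beads the estimated spread was the same for all miRNAs, so differences in spread between miRNAs carry no weight there. Each SE was taken as the log2 fold change over the root of F. Shares and log2 ratios were compared by exact permutation (20 assignments, smallest p 0.1) and within pools by exact sign exchange (smallest p 0.25), with SciPy 1.17.1 and Python 3.11.15. Serum pools pair the libraries by label. Deviations of libraries of a pool correlated by 0.0392 to 0.174 for beads and control, -0.0765 to 0.0810 for RNase H and control, and 0.0156 to 0.0455 for RNase H and beads. No pair of replicates agreed within sampling noise (lowest chi-square per degree of freedom 1.37). Hairpins were folded with RNAfold 2.7.2. RefSeq held sequences for miR-451a, both arms of miR-144 and miR-23a-3p. On simulated counts with a 3-fold change, the fit found 95.8%, 45.9% and 24.0% of changed miRNAs for beads versus control, RNase H versus control and RNase H versus beads, with 2.12%, 9.76% and 15.6% false calls. The simulation gave all miRNAs the same spread, so these rates may be too favourable for miRNAs whose replicates differ more. DESeq2 1.42.0 was an alternative, with its minimum fitted mean lowered because the default shifts fold changes in the shallow libraries. A quasi-likelihood fit with outlier-robust spread was added after seeing the data. The members, lists and tests were chosen with earlier results of these data known. Named miRNAs are the members, their hairpin arms, miR-23a-3p, called miRNAs of the lists and uncalled relatives of these, neighbours in abundance and the 3 most alike.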

Additional observations from a re-analysis of the deposited data

Results flagged for a closer look

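When RNase H and beads libraries were compared directly, 10 of 263 miRNAs were called (3.8%, edgeR, Benjamini-Hochberg). The 4 of them that are members, hairpin arms or listed red cell miRNAs are given here. miR-451a was lower with RNase H (log2 fold change -0.68, adjusted p = 0.00552), a call that 6 of 13 other settings lost. miR-92a-3p (-0.54, adjusted p = 0.0433) and miR-25-3p (-0.56, adjusted p = 0.0483) were lower as well, close to the threshold. The median was -0.34 over the 80 miRNAs with more than 3 counts in each group. miR-486b-3p was higher (3.73, adjusted p = 3.63e-86), with 144, 62 and 7 counts in the RNase H libraries of pools A, B and C. That p comes from a fit with one spread for all miRNAs, and the call was lost with an outlier-robust spread (adjusted p = 0.110) and without the beads library of pool A (0.0706) or B (0.0850). Leaving out a beads library left 33 miRNAs to test, against 263.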

How the results depend on the processing

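RNase H results were limited by depth, at 1199 to 2040 miRNA counts per library. Leaving out 1 library in turn, share differences in points ranged from -0.959 to 0.332 (miR-451a) and -0.927 to 0.626 (erythroid sum) for RNase H versus control, positive without RNase H replicate 1. They ranged from -0.0130 to 0.0652 (miR-144-3p) and -0.0196 to 0.276 (miR-486-5p) for RNase H versus beads and from -0.0116 to 0.284 (miR-486-5p) for RNase H versus control, negative without RNase H replicate 2, and from -0.000463 to 0.0170 (miR-486-5p) for beads versus control, negative without beads replicate 2. As a share of all annotated counts, miR-144-3p turned to -0.00112 (control) and -0.0967 (beads) and miR-486-5p to -0.00430 and -0.168. TMM scaling turned miR-144-3p against beads to -0.00338. Counts of calls for beads versus control, RNase H versus control and RNase H versus beads were 332, 51 and 250 with all annotated counts as library size (medians moved by 3.33, -1.51 and -4.75), against 82, 16 and 10. In the RNase H comparisons DESeq2 called 25 and 16, and leaving out 1 library gave 4 to 14 and 1 to 22. Leaving out a control or beads library there cut the miRNAs tested from 138 or 263 to 33 or 34. RNase H versus beads had 5 calls without TMM (median moved by 0.15) and 6 with the replicate block by serum pool, which changed no other call of the miRNAs named as members or arms. Fold changes that turned with all annotated counts were miR-486b-3p (3.24, beads versus control, and -1.10, RNase H versus beads), miR-144-3p (-0.75 and -4.63 for RNase H against control and beads) and miR-486b-5p (-0.75 and -4.13). Leaving out 1 library, fold changes ranged from -0.41 to 0.38 (miR-144-3p) and -0.23 to 0.77 (miR-486b-5p) against beads, negative without RNase H replicate 2. Against control they ranged from -0.36 to 0.10 (miR-451a), positive without each control replicate, and from -1.43 to 0.0054 (miR-144-5p), positive without RNase H replicate 1. With all 9 libraries, 0 of the 3 miRNAs most like miR-451a were shared. Only 27 miRNAs had at least 5 counts in each of these libraries, against 170 in the main set. Whether the 3 were among the 27 was not examined, so this is no test of their likeness. The cause was not tested, except that all annotated counts include the tRNA removed by depletion.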

Other observations

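The miRNAs whose levels followed the members most closely over the 6 control and beads libraries were found among 170 miRNAs with at least 10 counts in each, by the root mean square difference of centred log2 levels. For miR-451a these were MIMAT0000540 (0.0213), MIMAT0003151 (0.0653) and MIMAT0000136 (0.0658), against a median of 0.282 over all. For miR-144-3p they were MIMAT0000121 (0.0509), MIMAT0003151 (0.0812) and MIMAT0014856 (0.0923), against a median of 0.362. For miR-486b-5p they were MIMAT0004825 (0.0413), miR-92a-3p (0.0568) and MIMAT0000530 (0.0661), against a median of 0.201. MIMAT0003151 was thus near both miRNAs of the cluster. These distances are descriptions over libraries that share depth and scaling.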
